A study of Caenorhabditis elegans with 18 samples.

Results

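The transcripts described here are those of 7 kinase-like genes of Caenorhabditis elegans that lie in 2 local clusters on chromosome V. The first cluster holds E02C12.6 (WBGene00017092), E02C12.8 (WBGene00017093) and E02C12.10 (WBGene00017095). The second holds T16G1.4 (WBGene00011798), T16G1.5 (WBGene00011799), T16G1.6 (WBGene00011800) and T16G1.7 (WBGene00011801). The genes were taken by sequence name from a count table of 20395 genes, and all 7 had a row and passed the filter on low counts. They were chosen by an earlier look at the same counts, with their levels in all 6 groups and all differences between groups known. Their differences between groups are therefore given as a description, with no test, and the counts of genes past a threshold are set beside the share over all genes without anything being read from them.

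Every group, the DMSO control included, was whole worms of 1 strain, CB3474, with the genotype ben-1(e1880)III. Worms were held for 4 h in DMSO alone or in 1.13 mM of a benzimidazole dissolved in it. The drugs were thiabendazole (TBZ), mebendazole (MBZ), albendazole (ABZ), fenbendazole (FBZ) and oxfendazole (OxBZ). Each group had 3 libraries, numbered 1 to 3, or 2 to 4 for TBZ, and all 5 drugs were set against the same 3 DMSO libraries. By the protocol, larvae had grown at 20 °C in liquid for some 70 h and were adult, but the sample source is given as larvae of mixed stages, so the labels do not settle the stage. No wild-type strain was among the samples analysed. Nothing in the labels says whether each drug had cultures of its own, so that the spread between libraries may be technical in part. For the same reason a difference between groups cannot be told apart from a difference between cultures or batches. By their counts, ABZ and DMSO libraries of the same number paired, with correlations of 0.57 to 0.84 between their deviations from the group means. The fit behind the ABZ differences and SE below took no account of this pairing, and a fit with a replicate block is given at the end.

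The proteins of this family carry a domain that resembles choline and ethanolamine kinases and the ecdysteroid kinase-like proteins of insects. The founding insect enzyme phosphorylates ecdysteroid hormones in the silkworm Bombyx mori, and in Drosophila melanogaster members of the family have been proposed to phosphorylate foreign compounds. The substrates of the 7 C. elegans proteins are not assumed here, and no role is assigned to single members. Benzimidazoles bind beta-tubulin, and in wild-type worms they act through the product of ben-1. Among the drugs, ABZ is a carbamate bearing a propylthio group, FBZ one bearing a phenylthio group, OxBZ the sulfoxide of FBZ, and MBZ a carbamate with a benzoyl group, while TBZ has a thiazole ring and no carbamate.

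Library totals ran from 57010263 to 67277284 counts, and levels are in CPM, the reads of a gene relative to the library total after scaling. The ben-1 transcript itself was at 57.7 ± 7.81 CPM (SD, n = 3) in DMSO and at means of 52 to 66.4 CPM under the drugs. Reads assigned to ben-1 do not show the state of its allele. Markers of yolk-producing adults and of moulting larvae were both present in every library, with sums of 15900 to 80700 and 177 to 1040 CPM. The yolk sum overlapped DMSO under every drug. The moulting sum was 177 to 775 CPM in DMSO and wholly above it in FBZ (909 to 928) and MBZ (818 to 964). It overlapped DMSO under the other drugs. The sum of 7 oocyte and early embryo markers was 4160 to 4850 CPM in DMSO. It was wholly lower in FBZ (3540 to 3770) and TBZ (3260 to 4110), and overlapped DMSO under the other drugs. All 9 intestinal markers were detected, and their sum was 5610 to 7370 CPM in DMSO, 4900 to 7000 in ABZ, 3910 to 4090 in FBZ, 2720 to 2950 in OxBZ, 4190 to 5490 in MBZ and 4210 to 4730 in TBZ. It was thus wholly below DMSO under every drug but ABZ. The sum of 5 epidermal markers was 1130 to 1900 CPM in DMSO and 295 to 391 in FBZ, with maxima of 949 to 1120 in OxBZ, MBZ and TBZ. The sum of 7 neuronal markers was 334 to 412 CPM in DMSO, 413 to 476 in ABZ and 533 to 556 in FBZ. Of 12 sperm markers 2 were at 0 in every library, and the sum of the list was 181 to 1330 CPM in DMSO and 14.5 to 21.4 in FBZ. DMSO replicate 2 and ABZ replicate 2 held the highest sperm sums, at 1330 and 1170 CPM, and stood apart from the rest of their groups in this. TBZ replicate 2 stood apart from the other TBZ libraries in several of the 7 genes, and values without it are given with those genes. The part of these shifts in the levels of the kinase-like genes was not tested. In RNA from whole worms, fewer cells of a type and less RNA per cell cannot be told apart.

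All 7 genes lie on the minus strand of chromosome V. Gene order is given here by rising coordinate and so runs against the direction of their transcription. In gene order, E02C12.6 was followed by E02C12.8, by the low-count gene E02C12.9 and by E02C12.10, while T16G1.7, T16G1.6, T16G1.5 and T16G1.4 were direct neighbours of one another. Annotated exons of T16G1.7 overlap the opposite-strand gene T16G1.2, and E02C12.8 overlaps the antisense RNA gene anr-33, which was not analysed here. The strand setting of the authors' counting is not given in the sources used here, so reads from overlapping genes cannot be told apart. Neighbouring copies of one family can also share reads, and how such reads were counted is likewise not given, so the split of reads between members is uncertain to that extent.

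E02C12.10 went from nearly no reads in DMSO to the most abundant of the 7 transcripts in OxBZ. It was at 0.0332, 0 and 0.0649 CPM in the DMSO libraries, from 6 reads in all, and at 582, 488 and 544 CPM in OxBZ. In FBZ the libraries were at 83, 93.1 and 78.2 CPM, and neither group overlapped DMSO or the other. The ABZ libraries were at 2.32, 1.37 and 1.37 CPM and the MBZ libraries at 1.03, 0.854 and 1.19, low levels that nonetheless all lay above DMSO. In TBZ they were at 0.117, 3.68 and 7.81 CPM, so that replicate 2 stood well below replicates 3 and 4.

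With 6 reads in DMSO, the size of the E02C12.10 differences is known only loosely. The pooled counts gave a ratio to DMSO of 15900 for OxBZ, with an exact 95% interval of 7320 to 43400, and of 2520 for FBZ, with an interval of 1160 to 6880. For TBZ the ratio was 114 (52.1 to 311), for ABZ 49.1 (22.3 to 135) and for MBZ 30.3 (13.7 to 83.4). These intervals cover counting error only and leave out the spread between libraries. On the fitted log2 scale the differences from DMSO were 13.88 ± 1.19 (approximate SE) for OxBZ, 11.21 ± 1.16 for FBZ, 6.76 ± 1.23 for TBZ, 5.56 ± 1.34 for ABZ and 4.84 ± 1.43 for MBZ. Without TBZ replicate 2 the TBZ difference was 7.33.

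E02C12.6 followed the same order of FBZ and OxBZ at lower levels, while its ABZ and MBZ libraries overlapped DMSO. Its libraries were at 1.76, 3.98 and 1.17 CPM in DMSO, at 39.1, 35.6 and 37.7 in FBZ and at 121, 115 and 99 in OxBZ, with no overlap among these groups. The log2 differences from DMSO were 4.03 ± 0.51 for FBZ and 5.6 ± 0.55 for OxBZ. The ABZ libraries were at 1.2, 2.5 and 4.51 CPM and the MBZ libraries at 3.2, 3.23 and 7.24. For ABZ the log2 difference of 0.26 ± 0.47 had no settled sign, being -0.06 without DMSO replicate 3 and -0.31 without ABZ replicate 3. In TBZ the libraries were at 0.806, 0.485 and 0.837 CPM, all below DMSO, with a log2 difference of -1.69 ± 0.51.

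E02C12.8, which lies between them, stayed within a narrow range. It was at 5.1, 5.09 and 3.62 CPM in DMSO, at 5.92, 6.66 and 6.23 in FBZ and at 6.14, 6.08 and 7.08 in OxBZ. The log2 differences were 0.45 for FBZ and 0.48 for OxBZ, each ± 0.31, although the drug libraries lay just above all DMSO libraries. The highest group was MBZ, at 10.2, 8.15 and 6.27 CPM, and the lowest TBZ, at 3.99, 1.36 and 2.2, where replicate 2 lay within the DMSO range. The TBZ difference was -0.87 ± 0.31, and -1.38 without TBZ replicate 2. In ABZ the libraries were at 6.79, 7.87 and 4.85 CPM and overlapped DMSO.

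**Figure D1:**
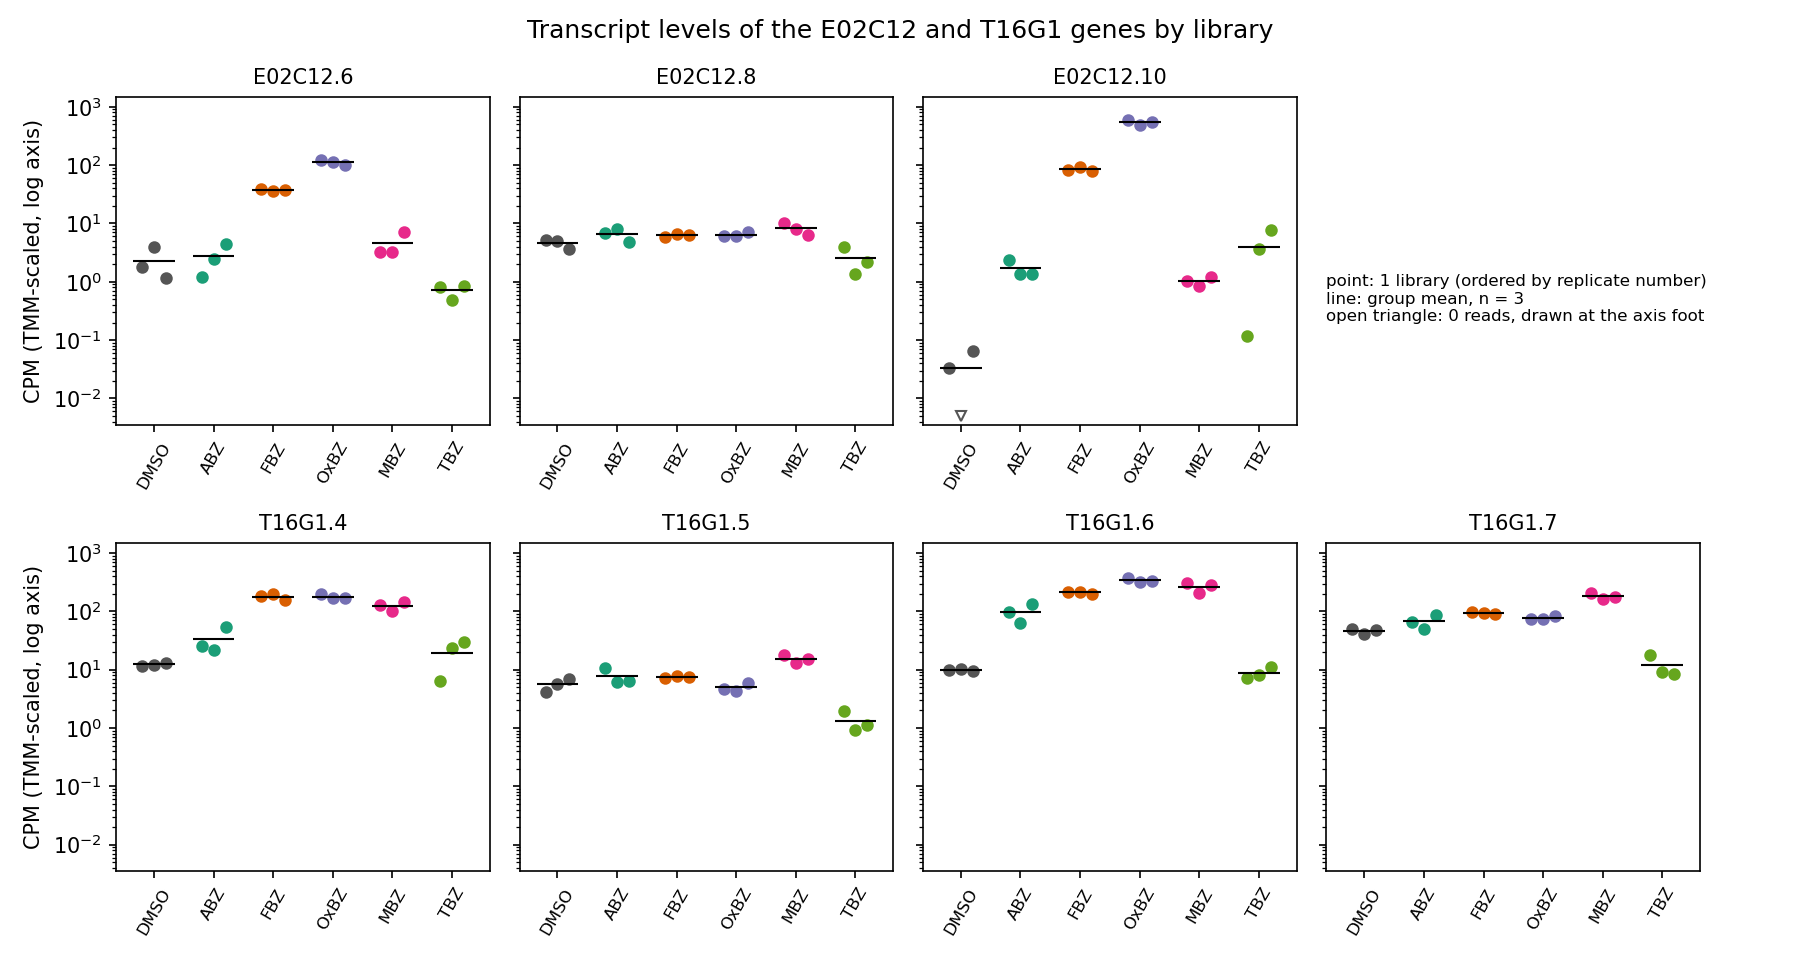
Level of each of the 7 kinase-like transcripts in CPM (log axis) in every library, by group, with the group means. E02C12.10 runs from at most 0.0649 CPM in DMSO to 488 CPM or more in OxBZ, whereas E02C12.8 stays between 1.36 and 10.2 CPM in all 18 libraries.

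In the T16G1 cluster, T16G1.6 had the largest differences from DMSO under ABZ, FBZ, OxBZ and MBZ, and none beyond its spread under TBZ. Its DMSO libraries were at 9.8, 10.2 and 9.66 CPM. They stood at 96.2, 63.5 and 133 CPM in ABZ, at 218, 217 and 201 in FBZ, at 368, 319 and 335 in OxBZ and at 304, 208 and 283 in MBZ. All 12 of these libraries lay above every DMSO library, and the lowest of them was ABZ replicate 2. The log2 differences were 3.3 ± 0.23 for ABZ, 4.42 ± 0.25 for FBZ, 5.11 ± 0.25 for OxBZ and 4.74 ± 0.25 for MBZ. In TBZ the libraries were at 7.31, 8.06 and 11 CPM, overlapping DMSO, with a log2 difference of -0.17 ± 0.22.

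T16G1.4 was also high under FBZ, OxBZ and MBZ, with a smaller difference in ABZ. It was at 11.7, 12 and 13.2 CPM in DMSO, at 184, 198 and 155 in FBZ, at 198, 172 and 167 in OxBZ and at 126, 101 and 144 in MBZ. FBZ and OxBZ both had a mean of 179 CPM and the same log2 difference from DMSO, 3.87 ± 0.45. That of MBZ was 3.33 ± 0.44. The ABZ libraries were at 25.2, 21.9 and 53 CPM, all above DMSO, with replicate 3 far above the other two and a log2 difference of 1.44 ± 0.42 that was 0.94 at its lowest with single libraries left out. In TBZ the libraries were at 6.41, 23.2 and 29.3 CPM, with replicate 2 below DMSO and replicates 3 and 4 above it. The TBZ difference was 0.68 ± 0.41, and 1.09 without replicate 2.

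T16G1.7 was the most abundant of the 7 transcripts in DMSO and had its highest level under MBZ, not under OxBZ. The DMSO libraries were at 49.3, 40.7 and 47.8 CPM and the MBZ libraries at 207, 162 and 179, with a log2 difference of 1.99 ± 0.24. In FBZ it was at 95.7, 91.9 and 88.4 CPM and in OxBZ at 74.3, 73.8 and 82.5, differences of 1 ± 0.24 and 0.74 ± 0.24. The FBZ libraries all lay above the OxBZ libraries, the reverse of the order seen for E02C12.10, E02C12.6 and T16G1.6. ABZ gave 66.8, 49.7 and 88.1 CPM, and TBZ gave 17.8, 9.29 and 8.53, below every DMSO library. The TBZ difference was -1.95 ± 0.24, or -2.37 without replicate 2.

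T16G1.5 was highest in MBZ, as T16G1.7 was, and had the most negative of the TBZ differences among the 7 genes. It was at 4.15, 5.77 and 6.86 CPM in DMSO, at a mean of 15.3 ± 2.48 in MBZ, with 17.8 in replicate 1 as the highest, and at 1.93, 0.91 and 1.14 in TBZ, with no overlap among these groups. The log2 differences were 1.45 ± 0.28 for MBZ and -2.07 ± 0.29 for TBZ. In OxBZ, where T16G1.6 was highest, T16G1.5 was at 4.69, 4.34 and 5.82 CPM and overlapped DMSO, with a difference of -0.18 ± 0.28. Without TBZ replicate 2, the highest of the TBZ libraries, the TBZ difference was -2.46. The FBZ libraries, at 7.3, 7.93 and 7.57 CPM, lay just above DMSO, and the ABZ libraries, at 10.5, 6.21 and 6.42, overlapped it.

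Counted against a threshold of 0.05 on the adjusted p-value of edgeR's quasi-likelihood test, 5 of the 7 genes were past it in the higher direction under FBZ, where 24.3% of all 17484 tested genes were, and 5 under OxBZ, where 21.2% were. The same 5 genes were involved, E02C12.6, E02C12.10, T16G1.4, T16G1.6 and T16G1.7. Under MBZ 4 were higher, the 4 T16G1 genes, beside 1.25% of all genes. Under ABZ 2 were higher, E02C12.10 and T16G1.6, beside 1.6%. The call of E02C12.10 was lost when any 1 of the 6 ABZ and DMSO libraries was left out. It was also lost without the filter on low counts and with only those 6 libraries in the fit. With DESeq2, and with a block for the replicate number in those 6 libraries, it was kept. Under TBZ 1 was higher, E02C12.10, beside 3.06%, and 2 were lower, T16G1.5 and T16G1.7, beside 3.17%. Without TBZ replicate 2 the TBZ count was 5, with T16G1.4 higher and E02C12.8 lower in addition. With only the TBZ and DMSO libraries in the fit it was 0, where 10 genes were higher and 2 lower in the whole table. The OxBZ call of T16G1.7 was lost without DMSO replicate 1, DMSO replicate 2 or OxBZ replicate 3, and the MBZ call of T16G1.5 without DMSO replicate 2 or MBZ replicate 3 or with only the MBZ and DMSO libraries.

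Counting instead the genes whose 3 drug libraries all lay above all 3 DMSO libraries gave 7 of 7 under FBZ, beside 33.1% of all tested genes. It gave 6 under OxBZ beside 26.4%, 6 under MBZ beside 13.7%, 4 under ABZ beside 6.63% and 1 under TBZ beside 11.5%. Under TBZ 3 lay wholly below DMSO, E02C12.6, T16G1.5 and T16G1.7, beside 10.7%. The median log2 difference of the 7 genes was 3.87 for FBZ and for OxBZ, 1.99 for MBZ, 0.57 for ABZ and -0.87 for TBZ. Over all tested genes the median lay between -0.01 and 0.01 for every drug.

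**Figure D2:**
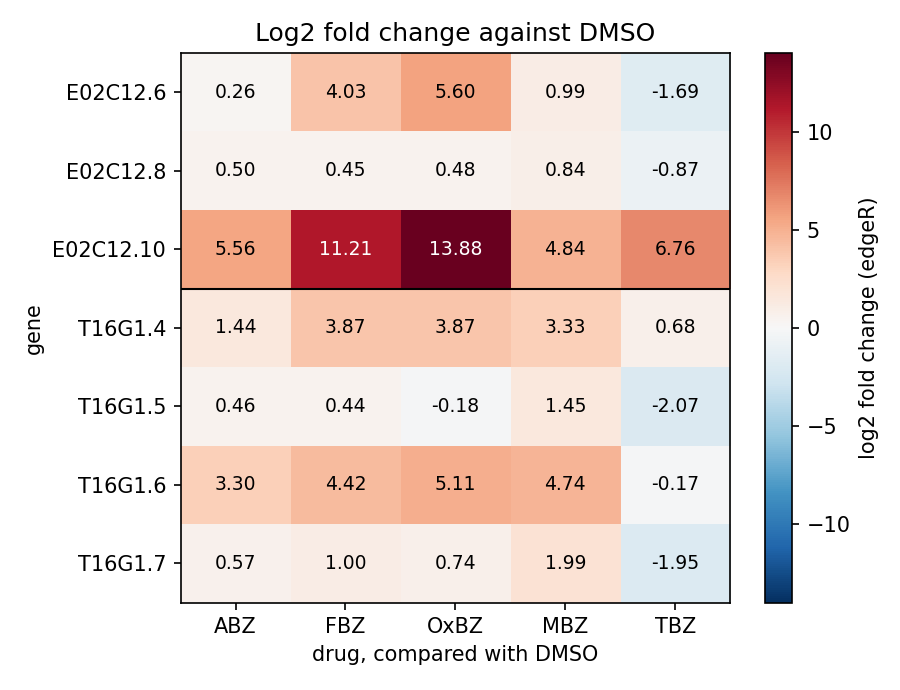
Log2 difference from DMSO of each of the 7 genes (rows) under each of the 5 drugs (columns), as fitted by edgeR. E02C12.10 is positive in every column, up to 13.88 under OxBZ, and 5 of the 7 TBZ values are negative, down to -2.07 for T16G1.5, as is that of T16G1.5 under OxBZ (-0.18).

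The 2 clusters differed in which drugs gave high levels. The 3 E02C12 transcripts summed to 6.94 ± 2.11 CPM in DMSO, 10.9 ± 0.738 in ABZ, 13.8 ± 1.36 in MBZ and 7.1 ± 3.26 in TBZ, but to 128 ± 6.62 in FBZ and 656 ± 49.8 in OxBZ. The 4 T16G1 transcripts summed to 73.7 ± 4.57 CPM in DMSO and to 491 ± 33.4 in FBZ, 601 ± 39.2 in OxBZ and 587 ± 90.4 in MBZ. The T16G1 sums of OxBZ and MBZ lay within each other's SD, whereas the E02C12 sum of OxBZ was far above that of MBZ. In ABZ the T16G1 sum was 207 ± 70.1 CPM, between DMSO and MBZ, and in TBZ it was 41.6 ± 8.29, below DMSO.

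The make-up of each cluster also shifted, as shares of the CPM per kilobase of annotated exon. In DMSO T16G1.7 held 61.1% ± 3.26 of the T16G1 total and T16G1.6 held 14.6% ± 1.34. In OxBZ the shares were 11.9% ± 1.16 and 58% ± 0.512, and T16G1.6 was also the largest share in ABZ (49.1% ± 1.82), FBZ (44.8% ± 1.22) and MBZ (47% ± 1.87). T16G1.4 held 17.4% ± 1.04 in DMSO and 36.3% ± 2.06 in FBZ. In TBZ it held the largest mean share, 45% ± 21.9, with a range of 19.8% to 58.9%. In the E02C12 cluster, E02C12.8 held 61.6% ± 11.3 in DMSO and 0.728% ± 0.0827 in OxBZ, where E02C12.10 held 82.3% ± 1.82. In FBZ the E02C12.10 share was 66.9% ± 2.58. In TBZ it was 50.1% ± 40.9, with a range from 3.04% in replicate 2 to 76.1%, so no single make-up describes that group.

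**Figure D3:**
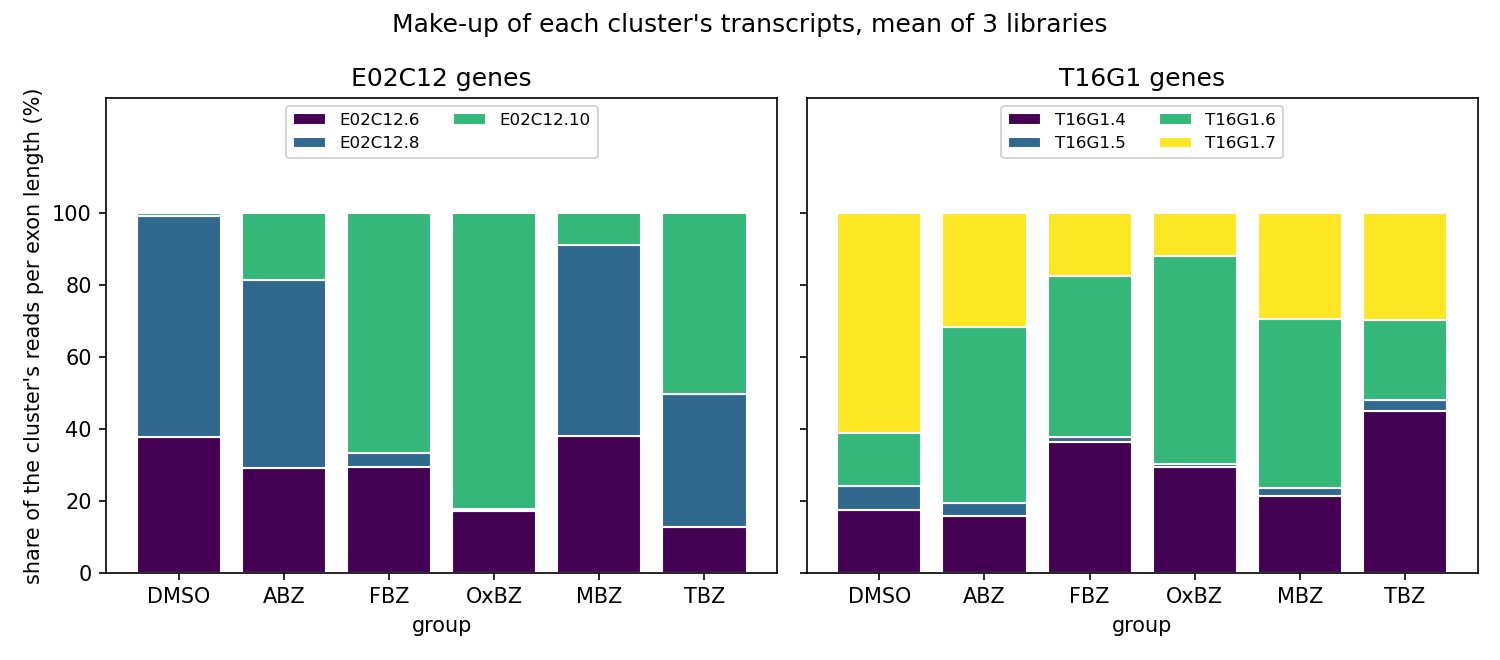
Share of each gene in its cluster's summed CPM per kilobase (percent), as stacked bars of group means for the E02C12 and the T16G1 cluster. T16G1.7 holds the largest T16G1 share in DMSO (61.1%) and T16G1.6 the largest in OxBZ (58%), while E02C12.10 goes from 0.756% of the E02C12 total in DMSO to 82.3% in OxBZ.

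Ordered by level per length in DMSO, T16G1.7 came first at 30.6 ± 3.08 CPM per kilobase, followed by T16G1.4 at 8.71 ± 0.568 and T16G1.6 at 7.3 ± 0.207. The next 3 were T16G1.5 at 3.4 ± 0.829, E02C12.8 at 2.56 ± 0.475 and E02C12.6 at 1.73 ± 1.11, whose spreads overlapped from one to the next. E02C12.10 came last at 0.0247 ± 0.0245. In OxBZ the order was E02C12.10 at 406 ± 35.7 CPM per kilobase, T16G1.6 at 251 ± 18.5, T16G1.4 at 127 ± 11.7, E02C12.6 at 83.8 ± 8.44 and T16G1.7 at 51.3 ± 3.26. E02C12.8 and T16G1.5, at 3.58 and 3.01, were last. The last gene of the DMSO order, E02C12.10, was thus the first in OxBZ.

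The drugs were given at 1 nominal dose and 1 time, and the 10 drug pairs are again a description. Differences between drugs cannot be told apart from differences between their cultures or batches. FBZ and its sulfoxide OxBZ differed for the E02C12 genes that were high in both. Expressed as FBZ minus OxBZ, the log2 difference was -2.67 ± 0.65 for E02C12.10 and -1.58 ± 0.46 for E02C12.6, with no overlap of libraries. T16G1.6 differed less, by -0.68 ± 0.21, and T16G1.4 by 0 ± 0.4. T16G1.5 at 0.62 ± 0.28 and T16G1.7 at 0.26 ± 0.23 lay on the other side, with all FBZ libraries above all OxBZ libraries. E02C12.8, at -0.04 ± 0.31, overlapped. In this pair 38.8% of all tested genes had all FBZ libraries above OxBZ and 38.8% all below.

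Between FBZ and MBZ, 3 of the 7 genes had all FBZ libraries above MBZ, beside 28.3% of all genes, and 2 had all below, beside 29.7%. As FBZ minus MBZ, the log2 difference was 6.37 ± 0.8 for E02C12.10 and 3.04 ± 0.49 for E02C12.6, but -1.01 ± 0.28 for T16G1.5 and -0.99 ± 0.24 for T16G1.7. T16G1.6, at -0.32 ± 0.21, overlapped, and T16G1.4, at 0.54 ± 0.4, was slightly higher in FBZ. OxBZ minus MBZ ran from 9.04 ± 0.88 for E02C12.10 to -1.63 ± 0.28 for T16G1.5 and had the same sign as FBZ minus MBZ for every member except T16G1.6, at 0.36 ± 0.21.

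ABZ was lower than MBZ for all 4 T16G1 genes, with log2 differences from -1.89 ± 0.42 for T16G1.4 to -0.99 ± 0.28 for T16G1.5 and no overlap of libraries, where 8.53% of all genes had all ABZ libraries below MBZ. For E02C12.10 the ABZ libraries lay above the MBZ libraries, but the difference of 0.71 ± 0.76 was smaller than its SE. TBZ, the drug without a carbamate, was below FBZ and OxBZ for all 7 genes with no overlap of libraries, beside 30.7% and 29% of all genes. The FBZ minus TBZ differences ran from 1.32 ± 0.32 for E02C12.8 to 5.72 ± 0.56 for E02C12.6. Against MBZ, 6 of the 7 genes were wholly lower in TBZ, beside 9.45% of all genes, and E02C12.10 overlapped.

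Within TBZ the libraries did not agree on the level of most members. Replicate 2 was the lowest of the 3 for E02C12.10 and T16G1.4 and the highest for E02C12.8, T16G1.5 and T16G1.7. E02C12.10 was at 0.117 CPM there and at 3.68 and 7.81 in replicates 3 and 4, while T16G1.7 was at 17.8 against 9.29 and 8.53. T16G1.6 was at 7.31 CPM in replicate 2, close to the 8.06 of replicate 3. The labels name no batch that sets replicate 2 apart.

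Across the 18 libraries the members fell in with one another unevenly, as a description over libraries that share 6 groups. The log2 CPM of T16G1.5 and T16G1.7 had a Pearson r of 0.95, and that of T16G1.4 and T16G1.6 an r of 0.92. Within groups, after the group means were taken out, these were 0.54 and 0.71. E02C12.6 and E02C12.10 had r = 0.82 over all libraries and -0.27 within groups, so their likeness lay between groups. E02C12.8 had r = 0.87 with T16G1.5 and with T16G1.7 of the other cluster, and 0.17 with E02C12.10 of its own. E02C12.10 and T16G1.4 had r = 0.8 both over all libraries and within groups, the latter including the spread of the TBZ libraries.

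The mean profile of each cluster was taken over its members' centred log2 CPM, not scaled to their spread. Members with a wide range therefore weigh most in it. In the E02C12 profile this is E02C12.10, while E02C12.8, which stayed within a narrow range, weighs little. The genes whose log2 CPM over the 18 libraries was most like these profiles were taken from 13919 non-member genes with a mean of at least 1 CPM. For the E02C12 cluster they were ugt-21, a glucuronosyltransferase gene (Pearson r = 0.967), the cytochrome P450 gene cyp-33C2 (0.96), the metal-responsive gene numr-1 (0.955), the proton pump subunit gene unc-32 (0.953) and the endosomal GTPase gene rab-5 (0.95). Their sizes of change were unlike. From DMSO to OxBZ, cyp-33C2 went from a mean of 3.44 to 169.7 CPM, while rab-5 went from 140.99 to 180.56. For the T16G1 cluster they were the P450 genes cyp-33C7 (0.937) and cyp-13A7 (0.922), C49G7.7 (0.92), C53B4.3 (0.917) and the glucuronosyltransferase gene ugt-2 (0.905). Like T16G1.7 and T16G1.5, cyp-33C7, C49G7.7 and ugt-2 had all TBZ libraries below DMSO. The TBZ and DMSO means were 4.26 and 11.39 CPM for cyp-33C7, 1.21 and 3.71 for C49G7.7, and 6.03 and 12.95 for ugt-2. The TBZ libraries of cyp-13A7 and C53B4.3 overlapped DMSO.

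The genes beside the members were taken by sequence name and gene order and not by their values, so their differences from DMSO were tested. They lie next to members that were chosen by value, and earlier results were known. The 19 neighbours were the other genes with an E02C12 or T16G1 sequence name and the 3 genes on each side of each cluster, and 15 of them had enough reads. The 4 that did not were srx-47, srx-46, T16G1.3 and E02C12.9, which lies inside the E02C12 cluster between E02C12.8 and E02C12.10 and had 15 reads over all 18 libraries. In edgeR's quasi-likelihood test with Benjamini-Hochberg adjustment over all genes, 6 of the 15 rose and 3 fell under FBZ, beside 24.3% and 27.4% of all genes, and 3 rose and 1 fell under OxBZ, beside 21.2% and 21.5%. E02C12.11, counted among those that rose under both, had enough reads in FBZ and OxBZ alone. None passed under ABZ, MBZ or TBZ, where 1, 3 and 3 had an unadjusted p under 0.05. No share over all genes was taken at that unadjusted cutoff. With DESeq2 none passed under ABZ and MBZ, and 2 fell under TBZ, where 1132 of all 17484 genes did. The median log2 difference of the 15 genes was 0.42 for FBZ, 0.17 for OxBZ and 0.06 to 0.15 for the other drugs. Over all tested genes the median was -0.01 for FBZ and OxBZ and 0.01 for the other drugs.

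E02C12.11, next to E02C12.10 in gene order, lies on its upstream side on the same strand. It rose under the same pair of drugs. It was at 0.0664, 0.0359 and 0.0486 CPM in DMSO, at 2.38, 2.36 and 2.34 in FBZ and at 13.5, 12.7 and 14 in OxBZ, with no overlap among these groups. It passed the filter on low counts only through these 2 drugs, since a minimum of about 0.16 CPM in 3 libraries of a group was met in neither DMSO, ABZ, MBZ nor TBZ. In the edgeR fit without that filter, the log2 differences from DMSO were 5.49 ± 0.53 (adjusted p = 7.71e-06) and 8 ± 0.57 (adjusted p = 2.04e-07). FBZ minus OxBZ was -2.51 ± 0.41 in the same fit (adjusted p = 0.000132). The next gene, E02C12.12, rose by 2.01 ± 0.48 under FBZ (edgeR adjusted p = 0.00368) and by 3.37 ± 0.49 under OxBZ (adjusted p = 0.000133), and the pair differed by -1.36 ± 0.43 (adjusted p = 0.0144). E02C12.11 and E02C12.12 overlap each other in the annotation, so their reads may be shared. Reads shared between E02C12.11 and the chosen member E02C12.10 cannot be told apart either, as their counting is not given. The p-values of E02C12.11, and those of E02C12.12 through their overlap, may therefore depend on the choice of E02C12.10. Under ABZ, MBZ and TBZ neither passed.

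None of the other tested neighbours rose under both FBZ and OxBZ. On the downstream side of the E02C12 cluster gpa-3, a G protein alpha subunit gene, rose under FBZ by 1.48 ± 0.33 (edgeR adjusted p = 0.00218). Under OxBZ gpa-3 was at -0.51 ± 0.33 (adjusted p = 0.22). The neuronal marker sum was also wholly above DMSO under FBZ, and its part in the rise of gpa-3 was not tested. On the other side hum-2, a myosin gene, fell by 0.29 under FBZ (adjusted p = 0.0096). Beside the T16G1 cluster pqn-67 rose by 1.4 ± 0.23 under FBZ (adjusted p = 0.00039) and fell by 1.21 under OxBZ (adjusted p = 0.0011). T16G1.2, which overlaps T16G1.7 on the opposite strand, rose by 2.38 ± 0.72 under FBZ (adjusted p = 0.0134), from 4, 0.807 and 1.96 CPM to 12.5, 9.68 and 13.1. Under MBZ, where T16G1.7 was highest, T16G1.2 was at 4.43, 4.87 and 5.07 CPM. Reads of T16G1.2 and of the chosen member T16G1.7 cannot be told apart where they overlap. The p-value of T16G1.2 may therefore depend on the choice of T16G1.7. Under FBZ grl-2 also rose, by 2.17 ± 0.74 (adjusted p = 0.0241), and T16G1.13 fell by 5.05 (adjusted p = 0.00391) from DMSO libraries that ran from 0.365 to 3.19 CPM. T16G1.13 was highest in DMSO replicate 2 (3.19 CPM) and ABZ replicate 2 (3.62), the libraries with the highest sperm marker sums. That sum was also low in FBZ, and its part in the fall of T16G1.13 was not tested. For eif-3.K, a translation initiation factor subunit gene, the differences were -0.17 ± 0.06 under FBZ (adjusted p = 0.0393) and 0.35 ± 0.06 under OxBZ (adjusted p = 0.000737). The other 6 tested neighbours, ttr-40, ttr-49, dhrs-4, T16G1.9, T16G1.18 and pqn-68, passed under no drug.

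**Figure D4:**
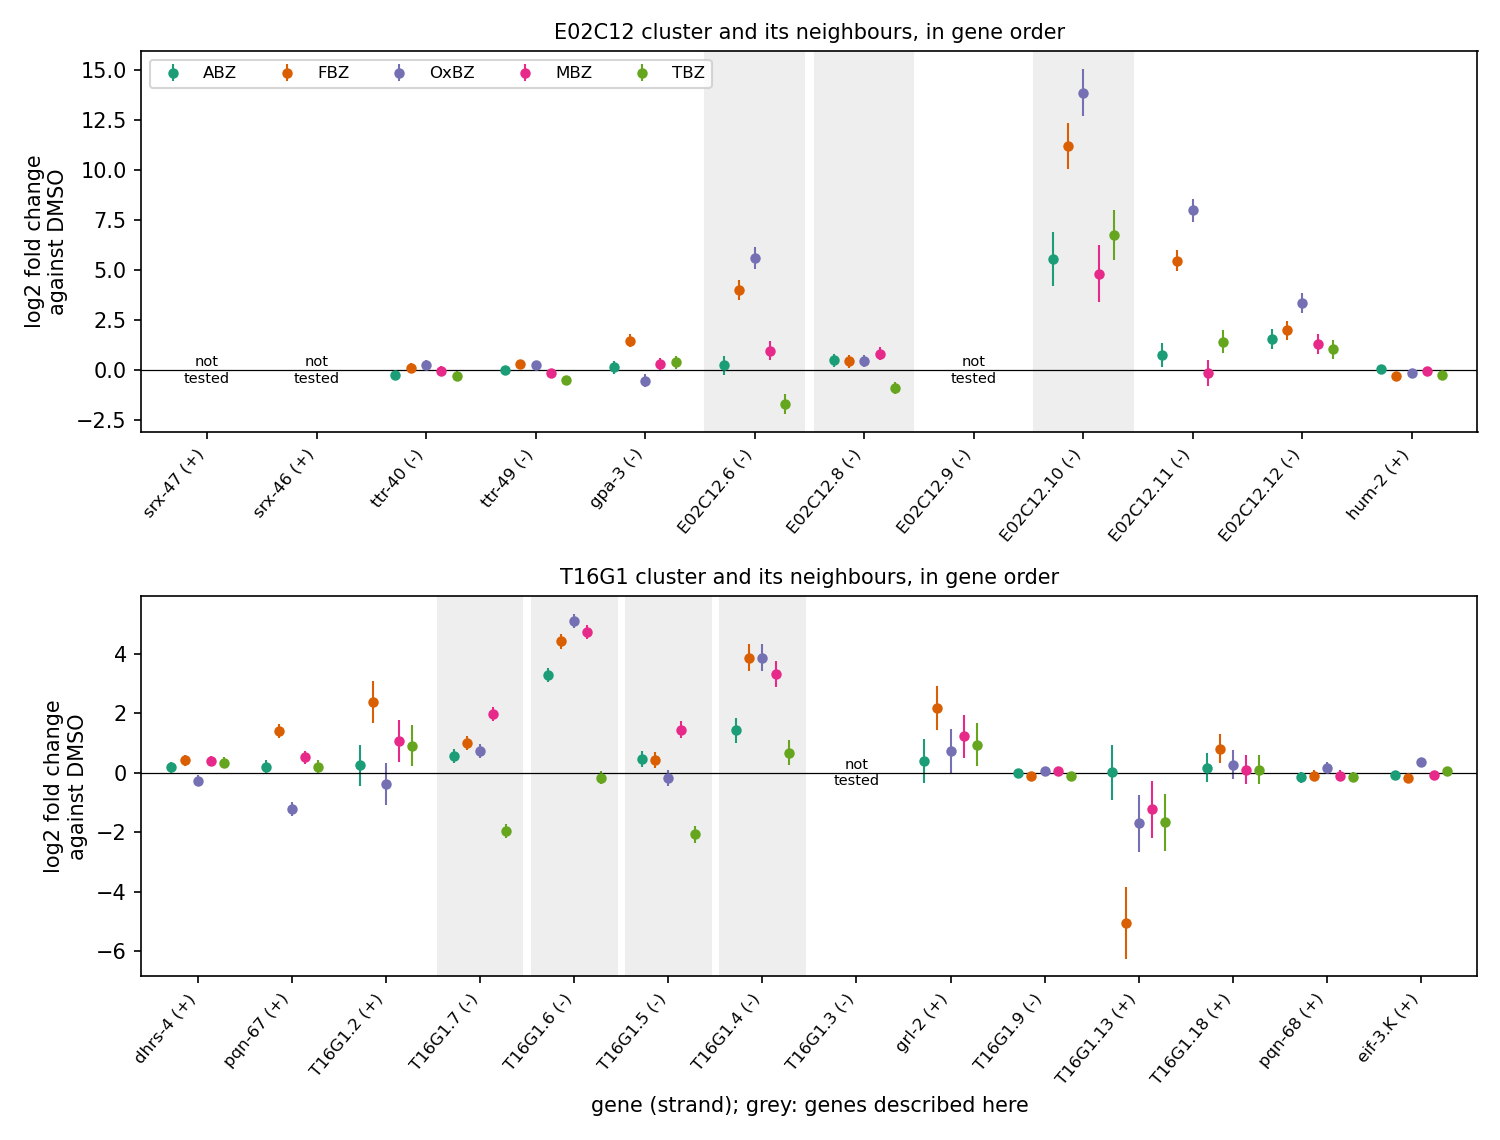
Log2 difference from DMSO ± approximate SE for the members and their tested neighbours in gene order along each cluster, by drug, with the strand of each gene. Under FBZ and OxBZ the values at E02C12.11, beside E02C12.10, are also high (5.49 and 8). E02C12.8, between the high members E02C12.6 and E02C12.10, stays below 0.5 there.

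Because the domain resembles choline kinases, 15 genes of choline phosphorylation and phosphatidylcholine synthesis were examined in the same fit. Under FBZ 1 rose and 5 fell in edgeR's quasi-likelihood test, beside 24.3% and 27.4% of all genes. Under OxBZ 2 rose and 6 fell, beside 21.2% and 21.5%. The choline kinase gene cka-2 rose by 1.18 ± 0.16 under FBZ (adjusted p = 0.000122), and ckc-1, another choline kinase gene, fell by 1.66 under OxBZ (adjusted p = 0.00162). The phosphoethanolamine methyltransferase gene pmt-2 fell by 1.31 under FBZ (adjusted p = 1.15e-05), by 1.52 under OxBZ (adjusted p = 1.94e-06) and by 0.59 under MBZ (adjusted p = 0.0425), where it was the 1 gene of the list that passed, beside 0.235% of all genes lower. Under OxBZ pmt-1 and the S-adenosylmethionine synthetase gene sams-1 also fell, by 1.28 (adjusted p = 2.28e-05) and 1.5 (adjusted p = 1.2e-05). None of the 15 passed under ABZ or TBZ, where 3 and 4 had an unadjusted p under 0.05 and DESeq2 called 1 lower and none. No share over all genes was taken at that unadjusted cutoff, so nothing is read from those counts. Over all 17484 genes DESeq2 called 266 lower under ABZ, and 931 higher and 1132 lower under TBZ. The list's median log2 difference was -0.28 for FBZ and -0.22 for OxBZ, where the median over all tested genes was -0.01 for both.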

How the data were processed

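The authors sequenced total RNA as paired-end reads and deposited raw read counts per gene. Subread 1.4.6 and featureCounts are named per the submitters' processing notes. The sources used here name no build, annotation, strand setting or multi-mapping treatment, and Ensembl WBcel235 annotation served only for names, gene order, strand and exon lengths. Symbols were found for 19628 of 20395 identifiers. No 2 libraries of a group agreed within sampling noise.

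Members, gene lists and tests were chosen with earlier results of these data known. Genes were kept by filterByExpr (minimum count 10), which removed 2911 and left 17484. In R 4.3.3, edgeR 4.0.16 with TMM scaling fitted 1 robust quasi-likelihood model to 18 libraries, 1 mean per group, with 12 residual degrees of freedom and a common biological coefficient of variation of 0.303. Benjamini-Hochberg adjustment ran over all tested genes (threshold 0.05). The approximate SE is the size of the log2 difference divided by the root of its F statistic. Fitted log2 differences use edgeR's default prior count. The log2 CPM behind the correlations use a prior count of 2. DESeq2 1.42.0 was an alternative, beside other size factors, no filter, 2-group fits, a replicate block and leaving out each library. The code was tested on simulated data.

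All members, all neighbours, up to 4 choline genes with the largest change past the threshold, and the 5 genes most like each cluster were named. A list of relatives by protein sequence had been planned and was not made, as no protein sequences were used here. Replicate numbers paired ABZ with DMSO libraries: the correlations of their deviations from the group means were 0.57 to 0.84. For FBZ, OxBZ, MBZ and TBZ the numbers did not pair.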

Additional observations from a re-analysis of the deposited data

How the results depend on the processing

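Of the 35 log2 differences of members from DMSO, all kept direction and side of the threshold with other size factors and 34 did so without a filter on low counts. Signs turned for T16G1.4 under TBZ with the replicate block (-0.06) and for E02C12.6 under ABZ without DMSO replicate 3 (-0.06) or ABZ replicate 3 (-0.31), with single libraries left out giving -0.31 to 0.91. The 2 members past the threshold under ABZ became 1 without the filter and 1 with only the ABZ and DMSO libraries, and 1 to 1 with single libraries left out. For DESeq2 this count was 3. The 3 members under TBZ became 5 with DESeq2, 0 with only the TBZ and DMSO libraries, and 3 to 5 with single libraries left out. In the whole table DESeq2 called 931 genes higher and 1132 lower under TBZ. The fit with only the TBZ and DMSO libraries called 10 and 2. Neighbours past the threshold went from 0 under TBZ to 2 with DESeq2. With single libraries left out they were 0 to 1 under ABZ, 0 to 2 under MBZ and 0 to 3 under TBZ, the highest value each time without DMSO replicate 1. Shares over all genes were not taken with single libraries left out.

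The replicate block, fitted in the libraries of a drug and DMSO, left 2 members past the threshold under ABZ, 5 under FBZ, 5 under OxBZ, 3 under MBZ and 0 under TBZ, where only the numbers 2 and 3 are shared. In the whole table the block fit called 2761 genes higher and 2642 lower under FBZ and 1109 and 922 under OxBZ. Under MBZ it called 16 and 0, and under TBZ 0 and 0, so the 0 under TBZ held for every gene. For neighbours it gave 6 under FBZ, from 9, and 3 under OxBZ, from 4. Over all genes, ABZ calls of 279 higher and 106 lower became 324 and 246 with the block, 26 and 1 with only ABZ and DMSO libraries, and 470 and 266 with DESeq2. The cause of these differences was not tested. Depth limits E02C12.10, whose DMSO level rests on 6 reads.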
